A study of Drosophila melanogaster with 26 samples.

Results

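The response to *jil-1* RNAi was compared between 2 *Drosophila* cell lines, male S2 cells and female Kc cells. A response was the log2 fold-change of a gene's counts between *jil-1* and control RNAi, and the genes described here are those whose response in S2 cells differed from that in Kc cells. Of the 17489 genes in the count tables, 7953 had reads in every one of the 18 samples and were tested for an interaction of cell line and RNAi, and 605 of them (7.61%) passed a Benjamini-Hochberg adjusted p of 0.05 (quasi-likelihood test of edgeR). The response was lower in S2 than in Kc cells for 304 genes (3.82%) and higher for 301 genes (3.78%). A difference is given throughout on the log2 scale as the response in S2 cells minus the response in Kc cells.

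The 4 groups were S2-DRSC cells after *jil-1* RNAi (5 samples), S2-DRSC cells after control RNAi (5 samples), Kc167 cells after *jil-1* RNAi (4 samples) and Kc167 cells after control RNAi (4 samples). S2 samples came in 3 batches, the last of which holds 1 sample of each group, and Kc samples in 2 batches. The RNA given to all cells was double-stranded, at 10 µg/mL, added on the first day and again after 3 days, and left for 4 days more. It was directed against *jil-1* or, in controls, against *gst* or *gfp*. The labels do not say which RNA or which kit for ribosomal RNA depletion a sample received. Nothing in the labels says whether the samples of a group came from separate cultures, so the p-values measure the spread between these samples, which may be technical.

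JIL-1 is the kinase that phosphorylates histone H3 on a serine of its tail in interphase, and its partner JASPer anchors it on the nucleosomes of transcribed genes. The kinase has been placed on the side of open chromatin, opposed to the spread of heterochromatin. In male cells, where the MSL complex and the *roX* RNAs raise the output of the X chromosome, JIL-1 is enriched on that chromosome. S2 and Kc cells both derive from embryos and express genes of hemocytes, the blood cells of the fly.

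Between 2513223 and 17648358 reads per sample fell on the strand of a gene, and levels are given as CPM, a gene's reads scaled to the reads on all tested genes of its library with TMM factors. The biological coefficient of variation was 9.13% in the common fit, 7.45% in S2 samples and 10.9% in Kc samples alone. The lines kept their labels: the male X complex markers *roX1*, *roX2* and *msl-2* summed to between 566 and 1013 CPM in S2 samples after *jil-1* RNAi and between 774 and 923 CPM in S2 controls, against 13.0 to 49.2 CPM in Kc samples after *jil-1* RNAi and 8.05 to 12.3 CPM in Kc controls. In S2 cells most of this sum was *roX2*. *roX1* overlapped between the lines, with 0.843 to 26.7 CPM in S2 and 1.05 to 33.4 CPM in Kc samples. All 7 hemocyte markers had reads in each group. The summed level of these 7 was between 11340 and 15020 CPM upon *jil-1* RNAi and between 9451 and 13490 CPM in controls of S2 cells, and between 1696 and 2454 CPM upon *jil-1* RNAi and between 2762 and 3524 CPM in controls of Kc cells.

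The targeted gene was read first. Reads opposite to *JIL-1* (FBgn0020412, minus strand of arm 3L, 11078752 to 11093193), which an mRNA of the gene does not give, came to 214, 159, 109, 363 and 398 CPM in S2 samples after *jil-1* RNAi (replicates 4, 5, 8, 9 and 11, the order used for S2 cells throughout) and to 6.02, 3.000, 6.84, 13.0 and 3.98 CPM in S2 controls. In Kc cells they came to 59.4, 97.4, 159 and 111 CPM after *jil-1* RNAi (replicates 1, 2, 3 and 4) and to 5.50, 4.11, 2.49 and 4.41 CPM in controls. Every sample labelled *jil-1* RNAi thus stood above every control, in both lines. Reads on the gene's own strand also rose in some *jil-1* RNAi samples, to 672 CPM in S2 replicate 8 and 344 CPM in Kc replicate 1, and so could not be used as the level of the mRNA. The depth of the knockdown could thus not be compared between the lines from these counts. In the study's protein blots, JIL-1 was depleted after *jil-1* RNAi in both lines. *Jasper*, the gene of the anchoring protein, differed by 0.12 between the responses (standard error 0.09, adjusted p = 0.455), with 139.6 ± 11.5 and 134 ± 17.7 CPM after *jil-1* and control RNAi in S2 cells (SD, n = 5 each) and 87.2 ± 4.36 and 89.9 ± 4.51 CPM in Kc cells (SD, n = 4 each).

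Kc replicate 1 after *jil-1* RNAi stood apart. Over 31 genes above 20 CPM in every S2 sample and under 1% of the S2 control level in Kc controls, its summed level was 1.65% of that of S2 controls, against 0.51% to 0.62% in the other Kc samples after *jil-1* RNAi. Kc controls, whose low levels chose these genes, were at 0.27% to 0.42% and are no measure to set the *jil-1* RNAi samples against. Without both Kc samples numbered 1, a choice made after seeing the data, 288 genes had a lower and 293 a higher response in S2 cells, and 455 of the 605 genes were called again.

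Most genes whose responses differed passed the test of the response itself in 1 line and not in the other. Of the 605 genes, 239 passed the test in Kc cells alone (88 with a lower and 151 with a higher response in S2 cells) and 228 in S2 cells alone (146 lower, 82 higher). For 43 genes both lines passed in opposite directions, for 21 both passed in the same direction with different sizes, and for 74 neither line passed alone. The differences were larger on the lower side, with a median of -0.66 for the 304 genes and 0.42 for the 301 genes, and 108 of the 304 but 29 of the 301 exceeded 1 in size. For 467 of the 605 genes (77.2%), every log2 ratio of same-numbered samples in one line lay beyond every one in the other, which held for 10.5% of all genes tested. The ratios lay all below in 235 of the 304 genes (5.13% of all tested) and all above in 232 of the 301 (5.37%). The calls and the ratios come from the same samples, so these shares lend the calls no independent support. Nor were same-numbered samples taken as pairs. Scaling factors taken from autosomal genes gave 350 lower and 197 higher responses. Single samples changed the counts: without S2 control replicate 8 the counts were 173 and 133, without S2 control replicate 9 they were 236 and 144, without S2 replicate 9 after *jil-1* RNAi 191 and 153, without either S2 sample numbered 11 194 and 161 to 162, and without Kc control replicate 4 250 and 191. Leaving out S2 batch 2 lowered the counts to 88 and 30, leaving out Kc batch 2 to 140 and 91, and a fit without batches to 41 and 18.

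**Figure D1:**
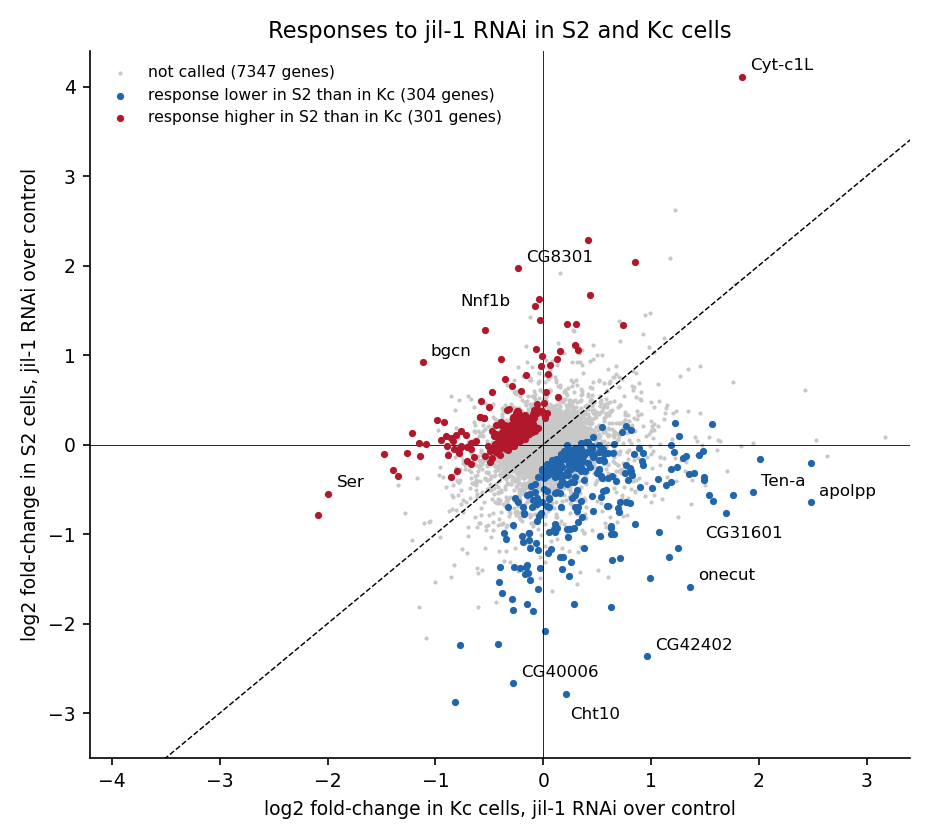
Log2 fold-change upon *jil-1* RNAi in S2 cells (y axis) against that in Kc cells (x axis) for each tested gene except *JIL-1*; the dashed line marks equal responses. The 304 genes with a lower response in S2 cells (blue) lie below it and the 301 genes with a higher response (red) above it, most of them near the axis of one of the lines.

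Among the genes with a higher response in S2 cells, *Cyt-c1L* led with a difference of 2.27 (standard error 0.30, adjusted p = 0.000247). This gene (FBgn0039651, minus strand of arm 3R, 29202660 to 29204133) encodes a testis form of cytochrome c1, a subunit of respiratory complex III. It had 12.2, 12.6, 21.7, 21.8 and 15.2 CPM in S2 cells after *jil-1* RNAi, against 0.441, 1.16, 1.27, 1.66 and 0.796 CPM in S2 controls. In Kc cells it had 17.1, 19.2, 16.3 and 18.02 CPM after *jil-1* RNAi, against 4.01, 3.16, 6.92 and 6.62 CPM in controls. *Cyt-c1L* rose in both lines to overlapping levels, while its controls were lower in S2 than in Kc cells without overlap. Its general counterpart *Cyt-c1* had a difference of 0.21 that did not pass (adjusted p = 0.0619), at 199.9 ± 19.3 and 193 ± 17.5 CPM after *jil-1* and control RNAi in S2 cells (SD, n = 5 each) and 210.3 ± 6.84 and 236 ± 24.2 CPM in Kc cells (SD, n = 4 each).

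*bgcn* (FBgn0004581, minus strand of arm 2R, 23853270 to 23858921), which acts with *bam* in the differentiation of germline stem cells, changed in opposite directions. Its level was 2.33, 2.10, 2.42, 1.95 and 1.80 CPM in S2 cells after *jil-1* RNAi and 1.25, 0.924, 1.01, 0.949 and 1.36 CPM in S2 controls. In Kc cells *bgcn* had 64.1, 57.2, 87.7 and 58.6 CPM after *jil-1* RNAi and 138, 162, 140.4 and 150.2 CPM in controls. Every S2 sample was thus far below every Kc sample, and the RNAi brought the lines closer, with a difference of 2.04 (standard error 0.29, adjusted p = 0.000512). Part of its span is shared with *Pym* on the same strand. *Nnf1b* (FBgn0051658, plus strand of arm 2L, 810577 to 811531), a subunit of the kinetochore, had 10.1, 7.599, 10.6, 10.1 and 11.8 CPM in S2 cells after *jil-1* RNAi against 2.35, 3.47, 3.67, 4.03 and 4.55 CPM in S2 controls. In Kc cells it had 38.7, 40.1, 35.7 and 38.7 CPM after *jil-1* RNAi and 38.6, 43.5, 40.1 and 38.5 CPM in controls, values that overlapped. The difference of *Nnf1b* was 1.62 (standard error 0.14, adjusted p = 4.72e-06), and that of its paralog *Nnf1a*, also called, 0.50 (standard error 0.12, adjusted p = 0.0235).

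Several further genes rose in S2 cells, of which all but *CG17029* were lower on average in S2 than in Kc cells. *CG8301* (FBgn0037717, plus strand of arm 3R, 9581306 to 9586648) had 3.397, 3.14, 4.38, 3.31 and 7.67 CPM in S2 cells after *jil-1* RNAi and 0.734, 0.693, 1.01, 0.712 and 2.27 CPM in S2 controls, of which replicate 11 was the highest in both groups. In Kc cells *CG8301* had between 239 and 286 CPM after *jil-1* RNAi and between 279 and 362 CPM in controls. Its difference was 2.21 (adjusted p = 8.61e-06). Likewise *CG10738* (difference 1.66) averaged 3.51 ± 0.984 and 1.30 ± 0.662 CPM after *jil-1* and control RNAi in S2 cells (SD, n = 5 each), and 40.6 ± 2.77 and 41.9 ± 2.63 CPM in Kc cells (SD, n = 4 each). FBgn0030852, an ID that the annotation does not hold, averaged 3.21 ± 0.741 and 1.34 ± 0.367 CPM after *jil-1* and control RNAi in S2 cells (SD, n = 5 each), and 58.0 ± 8.12 and 58.9 ± 4.65 CPM in Kc cells (SD, n = 4 each; difference 1.43). *Ggt-1*, an enzyme that breaks down glutathione, had 3.79, 2.88, 4.21, 3.11 and 2.26 CPM in S2 cells after *jil-1* RNAi and 0.734, 0.462, 0.950, 0.237 and 0.455 CPM in S2 controls, all low, and between 4.50 and 8.90 CPM in Kc cells after *jil-1* RNAi and between 2.83 and 6.16 CPM in Kc controls (difference 1.87, adjusted p = 0.00656). *CG17029*, with as few as 1 read in a sample, had the least firm call of these genes (difference 1.82, adjusted p = 0.0299), which was lost without Kc replicate 1 after *jil-1* RNAi (adjusted p = 0.0531). It averaged 3.997 ± 1.90 and 1.66 ± 0.887 CPM after *jil-1* and control RNAi in S2 cells (SD, n = 5 each), and 0.962 ± 0.857 and 1.39 ± 0.738 CPM in Kc cells (SD, n = 4 each). The call was lost too without Kc replicate 2 after *jil-1* RNAi, Kc control replicate 4, S2 control replicate 8 or S2 control replicate 9 (0.0520 to 0.0765).

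Other genes with a higher response in S2 cells fell in Kc cells. *Ser* (FBgn0004197, minus strand of arm 3R, 27172090 to 27194267) encodes Serrate, a ligand of Notch. It had 114, 135, 98.1, 105 and 81.5 CPM in S2 cells after *jil-1* RNAi and 168, 162, 157, 148 and 134 CPM in S2 controls. In Kc cells *Ser* had 6.23, 5.56, 6.08 and 5.63 CPM after *jil-1* RNAi and 33.1, 17.5, 23.5 and 21.7 CPM in controls. It fell in both lines without overlap, with a response of -0.55 in S2 and -1.995 in Kc cells, a difference of 1.45 (standard error 0.21, adjusted p = 0.000583). *CG9372* had between 247 and 343 CPM in S2 cells after *jil-1* RNAi and between 271 and 388 CPM in S2 controls, and in Kc cells 7.12, 7.13, 4.14 and 3.75 CPM after *jil-1* RNAi against 21.6, 16.3, 14.97 and 9.31 CPM in controls (difference 1.37, adjusted p = 7.17e-05). *Idgf6*, a chitinase-like growth factor, had between 1081 and 1113 CPM in S2 cells after *jil-1* RNAi and between 1012 and 1096 CPM in S2 controls, against 292, 263, 312 and 302 CPM after *jil-1* RNAi and 428, 644, 479.5 and 558 CPM in controls of Kc cells. The difference of *Idgf6* was 0.93 (standard error 0.13, adjusted p = 0.000318). The calls of *Cyt-c1L*, *bgcn*, *CG8301*, *CG10738*, *Nnf1b*, *Ser*, *CG9372* and *Idgf6* held under every alternative in which they were tested, including the fit without batches.

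The lower responses in S2 cells were led by *CG42402* (FBgn0259821, plus strand of arm 3R, 4077939 to 4104326), with a difference of -3.33 (standard error 0.42, adjusted p = 0.000169). It had 8.35, 9.17, 5.67, 5.06 and 7.22 CPM in S2 cells after *jil-1* RNAi against 30.6, 31.0, 42.7, 39.4 and 29.6 CPM in S2 controls. In Kc cells *CG42402* had 2.45, 2.42, 13.2 and 4.50 CPM after *jil-1* RNAi against 1.57, 2.28, 2.27 and 6.49 CPM in controls. The S2 groups lay far apart and the Kc groups overlapped, with replicate 3 the highest after *jil-1* RNAi and replicate 4 the highest of the controls. *Cht10* (FBgn0250907, minus strand of arm 2L, 22999574 to 23025915), a chitinase, had 1.26, 2.10, 0.505, 0.584 and 1.47 CPM in S2 cells after *jil-1* RNAi and 6.76, 8.32, 5.64, 6.17 and 8.99 CPM in S2 controls. In Kc cells it had 9.79, 6.88, 8.21 and 6.01 CPM after *jil-1* RNAi and 4.62, 12.4, 3.52 and 6.49 CPM in controls. The S2 groups did not overlap and the Kc groups did, and the difference of *Cht10* was -3.003 (standard error 0.45, adjusted p = 0.000583). *CG40006* (FBgn0058006, minus strand of arm 2L, 22622417 to 22756349) had 6.6, 6.55, 3.88, 3.18 and 6.43 CPM in S2 cells after *jil-1* RNAi and 31.1, 32.1, 26.9, 23.7 and 49.1 CPM in S2 controls. In Kc cells *CG40006* had 66.5, 51.3, 40.2 and 27.0 CPM after *jil-1* RNAi and 72.8, 57.0, 54.4 and 42.0 CPM in controls, a difference of -2.38 (standard error 0.20, adjusted p = 4.20e-06). The calls of these 3 genes held under every alternative in which they were tested.

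Other genes with a lower response in S2 cells encode regulators and enzymes. *onecut* (FBgn0028996, minus strand of chromosome 4, 598555 to 607649), a homeobox transcription factor known from neurons, had 0.776, 1.05, 0.730, 0.648 and 1.13 CPM in S2 cells after *jil-1* RNAi against 2.13, 1.39, 2.85, 4.27 and 1.59 CPM in S2 controls. In Kc cells *onecut* had 7.79, 4.83, 9.53 and 5.25 CPM after *jil-1* RNAi against 2.35, 2.997, 1.81 and 3.67 CPM in controls, so that the groups did not overlap in either line and the directions were opposite (difference -2.95, standard error 0.43, adjusted p = 0.000519). *CG33521*, on the same chromosome, had 0.582, 1.05, 0.393, 0.648 and 0.677 CPM after *jil-1* RNAi and 1.62, 1.85, 1.90, 0.949 and 2.05 CPM in controls of S2 cells, all close to the level of few reads. In Kc cells *CG33521* had 5.34, 5.31, 13.5 and 5.63 CPM after *jil-1* RNAi and 2.53, 3.77, 3.63 and 5.63 CPM in controls (difference -2.49, adjusted p = 0.00187). *Cyp12a5*, a cytochrome P450, had 4.95, 5.24, 1.63, 1.88 and 11.5 CPM in S2 cells after *jil-1* RNAi and 10.7, 12.2, 12.3, 11.2 and 30.6 CPM in S2 controls, and between 4.23 and 4.50 CPM in Kc cells after *jil-1* RNAi and between 1.66 and 4.29 CPM in Kc controls (difference -2.44, adjusted p = 0.000706). *Erasp* (difference -2.40, adjusted p = 0.00893) had at most 1.93 CPM in any Kc sample, and its call was lost without Kc replicate 2 after *jil-1* RNAi (adjusted p = 0.142).

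**Figure D2:**
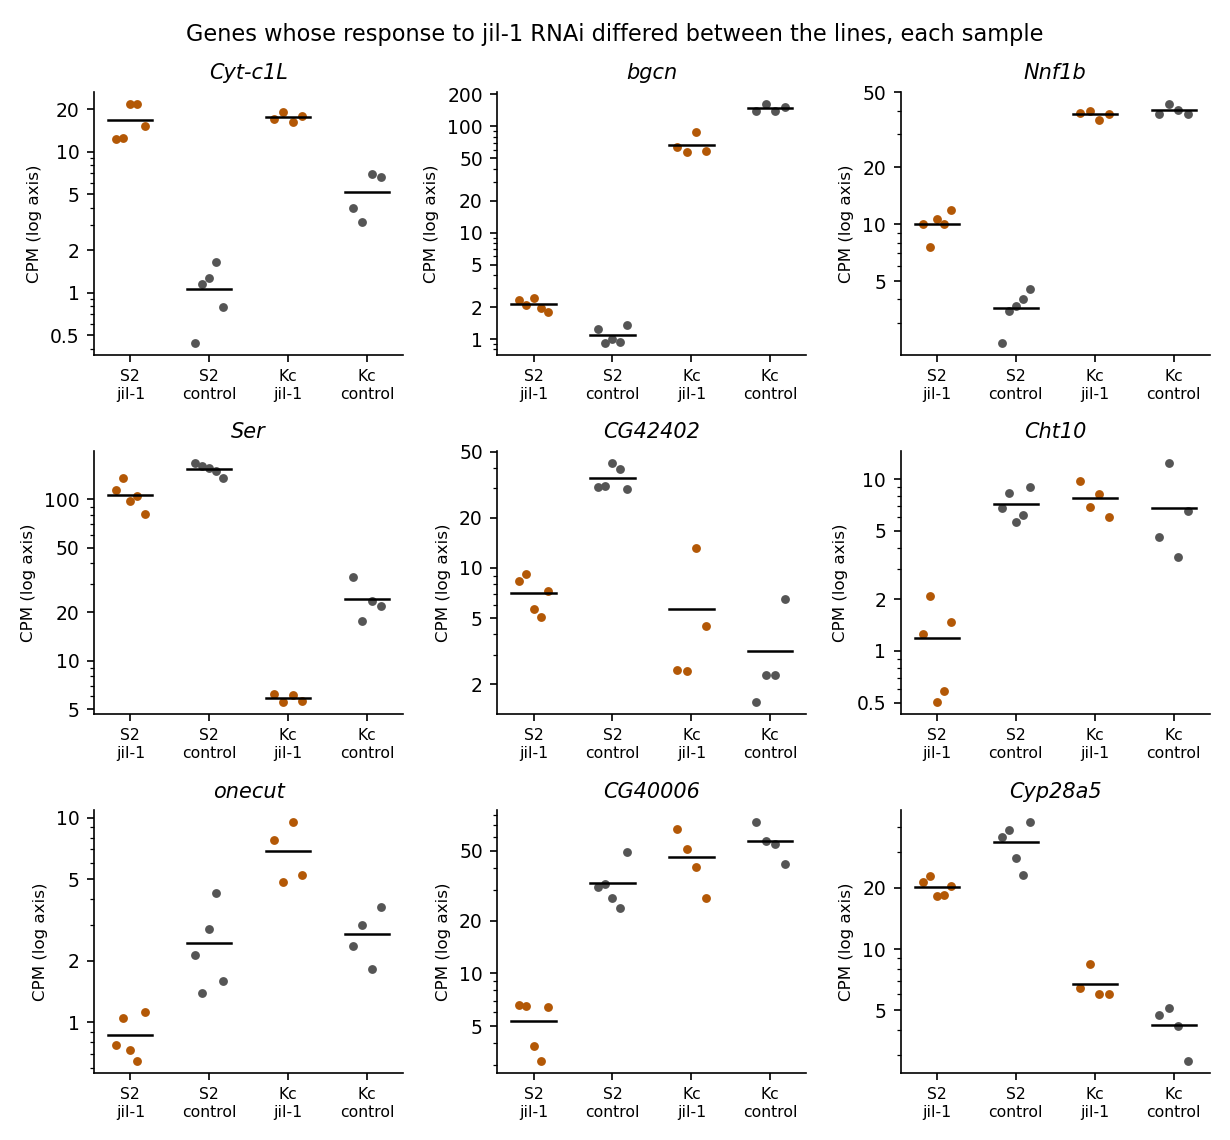
CPM (log axis) of 9 genes in each sample: S2 cells after *jil-1* RNAi (5 samples), S2 controls (5), Kc cells after *jil-1* RNAi (4) and Kc controls (4), with horizontal lines at the group means. *Cyt-c1L*, *bgcn* and *Nnf1b* were raised by the RNAi in S2 cells, *Ser* fell further in Kc cells, and *CG42402*, *Cht10*, *onecut*, *CG40006* and *Cyp28a5* fell in S2 cells with no fall, or a smaller one, in Kc cells.

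Some genes with a lower response in S2 cells were high in S2 cells and near the detection limit in Kc cells. *apolpp* (FBgn0087002, plus strand of chromosome 4, 1060969 to 1077273), the protein of the fly's lipid-carrying particles, had 34.9, 32.0, 19.3, 21.9 and 12.6 CPM in S2 cells after *jil-1* RNAi and 41.9, 44.8, 37.5, 39.4 and 19.9 CPM in S2 controls. In Kc cells *apolpp* had 36.9, 1.81, 3.51 and 3.003 CPM after *jil-1* RNAi and 0.611, 2.11, 1.47 and 2.94 CPM in controls. The high value in Kc cells was that of replicate 1, and without this sample the difference (with all samples -3.12, adjusted p = 0.0266) was -1.15 and no longer called (adjusted p = 0.0664); without both Kc samples numbered 1 it was -0.995. The call of *apolpp* was also lost without Kc control replicate 1, Kc control replicate 2 or S2 control replicate 8 (0.0510 to 0.0614). *Ten-a* (FBgn0267001, plus strand of chromosome X, 12043698 to 12335214), a cell surface protein of synapses, had 30.7, 40.6, 16.4, 18.5 and 28.1 CPM in S2 cells after *jil-1* RNAi and 40.3, 37.2, 30.8, 28.9 and 46.6 CPM in S2 controls. In Kc cells *Ten-a* had 11.1, 0.966, 5.204 and 6.01 CPM after *jil-1* RNAi and 0.523, 0.722, 1.93 and 2.57 CPM in controls, with overlap in both lines (difference -2.48, adjusted p = 0.0131). Without Kc replicate 1 after *jil-1* RNAi the difference of *Ten-a* was -1.65 and still called. *CG31601* had 2.00, 1.69, 1.44 and 1.13 CPM in Kc cells after *jil-1* RNAi against 0.349, 0.389, 0.340 and 0.980 CPM in Kc controls, at a level in S2 cells of 63.8, 56.6, 36.8, 39.7 and 72.1 CPM after *jil-1* RNAi and 93.3, 88.5, 75.2, 76.1 and 114.7 CPM in controls (difference -2.46, adjusted p = 0.000519). Further such genes were *nolo* (difference -2.18), *teq* (-2.33), *Syx4* (-1.61) and the homeotic regulator *tsh* (-1.59), chosen here after their values were seen. *nolo* averaged 342 ± 17.3 and 383 ± 9.07 CPM after *jil-1* and control RNAi in S2 cells (SD, n = 5 each) and 2.05 ± 1.505 and 0.409 ± 0.125 CPM in Kc cells (SD, n = 4 each). With the test restricted to the 7663 genes whose control levels in the lines were within 10-fold, a choice made after seeing the data, 261 genes had a lower and 266 a higher response in S2 cells.

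Some responses passed the test in both lines with opposite directions. By the size of p, the first 6 of 40 such genes with non-overlapping ratios were *CG6357*, *Cyp28a5*, *CG13917*, *CG1494*, *sdt* and *CG18528*. The cytochrome P450 gene *Cyp28a5* (FBgn0028940, plus strand of arm 2L, 13977302 to 13979569) had 21.3, 22.8, 18.2, 18.4 and 20.4 CPM in S2 cells after *jil-1* RNAi against 35.6, 38.4, 28.1, 23.0 and 42.2 CPM in S2 controls. In Kc cells *Cyp28a5* had 6.45, 8.46, 6.02 and 6.01 CPM after *jil-1* RNAi against 4.71, 5.11, 4.20 and 2.82 CPM in controls. It fell in S2 and rose in Kc cells with no overlap in either line (difference -1.40, standard error 0.18, adjusted p = 0.000238). *sdt* (FBgn0261873, plus strand of chromosome X, 8178549 to 8240474), a scaffold of the Crumbs polarity complex, had 14.7, 17.3, 14.3, 14.7 and 25.9 CPM in S2 cells after *jil-1* RNAi and 23.4, 28.4, 23.7, 23.2 and 41.0 CPM in S2 controls. In Kc cells *sdt* had 18.2, 11.5, 12.3 and 10.1 CPM after *jil-1* RNAi and 8.98, 8.49, 7.48 and 9.68 CPM in controls (difference -1.28, adjusted p = 0.000306). Replicate 11 was the highest of both S2 groups for *sdt*, so that the S2 groups overlapped through that batch, while its same-numbered ratio fell like the others. *CG13917* had between 25.6 and 31.5 CPM after *jil-1* RNAi and between 42.9 and 52.5 CPM in controls of S2 cells. Kc cells had between 37.8 and 43.8 CPM after *jil-1* RNAi and between 23.9 and 35.3 CPM in controls (difference -1.03, adjusted p = 0.000247). For *CG18528* the directions were the other way round, with a rise of 0.30 in S2 cells and a fall in Kc cells, where it had 74.5, 69.3, 58.9 and 50.3 CPM after *jil-1* RNAi and 109.8, 122, 73.7 and 81.1 CPM in controls (difference 0.89, adjusted p = 0.000512). *CG6357* and *CG1494* differed by -2.05 and -1.16.

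Genes of the mitochondrial respiratory chain, which passes electrons to oxygen and drives ATP synthesis, had the highest share of higher responses in S2 cells among the 33 lists examined. Of 70 tested genes, 24 (34.3%) were called higher and 0 lower, against 3.78% and 3.82% of all genes, and the median difference was 0.28, against 0.01 for all genes. The complex I subunit *ND-B14.7* had 85.3, 89.9, 91.9, 106 and 87.8 CPM in S2 cells after *jil-1* RNAi against 68.0, 75.5, 78.1, 78.5 and 77.1 CPM in S2 controls. In Kc cells *ND-B14.7* had 40.7, 45.2, 60.5 and 54.8 CPM after *jil-1* RNAi against 50.3, 51.3, 69.3 and 68.1 CPM in controls. It was raised in S2 cells, and lowered in Kc cells within each batch (difference 0.53, standard error 0.08, adjusted p = 0.00124). *SdhD* of complex II (difference 0.47, adjusted p = 0.00402) and *ND-B14.5B* of complex I (0.49, adjusted p = 0.0173) were also called, as were subunits of cytochrome oxidase (*COX5A*, *COX5B*, *COX7A*, *COX7B*, *COX7C* and *COX8*) and of ATP synthase (*ATPsynB*, *ATPsynE*, *ATPsynO* and *ATPsyngamma*). Apart from *Cyt-c1L* and *ATPsynepsilonL* (1.06), the called members of the list differed by between 0.29 and 0.53.

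Ribosomal proteins moved alike. Of 70 tested genes for proteins of the mitochondrial ribosome, 14 (20%) were called higher and 0 lower, with a median difference of 0.24. Of 79 for the cytosolic ribosome, 14 (17.7%) were called higher and 0 lower, with a median of 0.20. *RpL9* had 2350, 2273, 2099, 2137 and 2252 CPM in S2 cells after *jil-1* RNAi and 2428, 2220, 2169, 2153 and 2473 CPM in S2 controls, which overlapped. In Kc cells *RpL9* had 1766, 1752, 1242 and 1337 CPM after *jil-1* RNAi against 2134, 2281, 1790 and 1744 CPM in controls (difference 0.35, standard error 0.08, adjusted p = 0.0137). *RpS18* (0.38, adjusted p = 0.0215) and *RpS3* (0.34, adjusted p = 0.0276) also fell in Kc cells, where all 4 *jil-1* RNAi samples of *RpS3* were below all controls. Without S2 control replicate 9 the calls of *RpS18* (adjusted p = 0.0594) and *RpS3* (0.0808) were lost, and that of *RpS3* also without S2 control replicate 8, S2 replicate 9 or Kc replicate 3 after *jil-1* RNAi, Kc control replicate 3 or Kc control replicate 4 (0.0555 or more). Of the mitochondrial set, *mRpS17* had 36.8, 38.8, 39.3, 42.1 and 39.5 CPM in S2 cells after *jil-1* RNAi against 30.04, 25.9, 33.2, 32.7 and 28.7 CPM in S2 controls. Kc cells had between 24.4 and 27.8 CPM after *jil-1* RNAi and between 25.4 and 30.6 CPM in controls (difference 0.44, adjusted p = 0.0149). The side that moved was thus not the same for every gene, Kc cells for *RpL9* and S2 cells for *mRpS17* by the tests within a line.

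Related lists, which held fewer genes, had mostly positive differences and smaller counts of calls. Ribosome biogenesis factors had 5 of 25 tested genes (20%) called higher and 0 lower (median 0.18), a share like those of the ribosomal proteins. Among them were *NHP2* (0.42), *Nop56* (0.34) and the polymerase I subunits *Polr1B* (0.26) and *Polr1C* (0.38). The proteasome had 3 of 34 (8.82%) called higher (median 0.15, with *Prosbeta6*, *Prosalpha5* and *Prosalpha3* at 0.30 to 0.34). DNA replication had 1 of 31, below the 3.78% of all genes (*Ctf4*, 0.28), though 29 of the 31 differences were positive (median 0.18). None of these 3 lists had a gene called lower. Leaving out 1 of the 18 samples ended the call of *Polr1C* in 11 cases, of *Prosalpha3* in 12, of *Prosalpha5* in 9, of *Ctf4* in 10, and of *Prosbeta6* in 1 (S2 control replicate 9, adjusted p = 0.0674). In single pairs of same-numbered samples, the median log2 ratio over the respiratory chain was between 0.01 and 0.16 in S2 cells and between -0.19 and -0.10 in Kc cells, and the ranges of the lines were apart for the mitochondrial ribosome too (0.05 to 0.21 in S2 and -0.27 to 0.01 in Kc cells). For the cytosolic ribosome they overlapped (-0.11 to 0.16 in S2 and -0.32 to -0.08 in Kc cells).

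**Figure D3:**
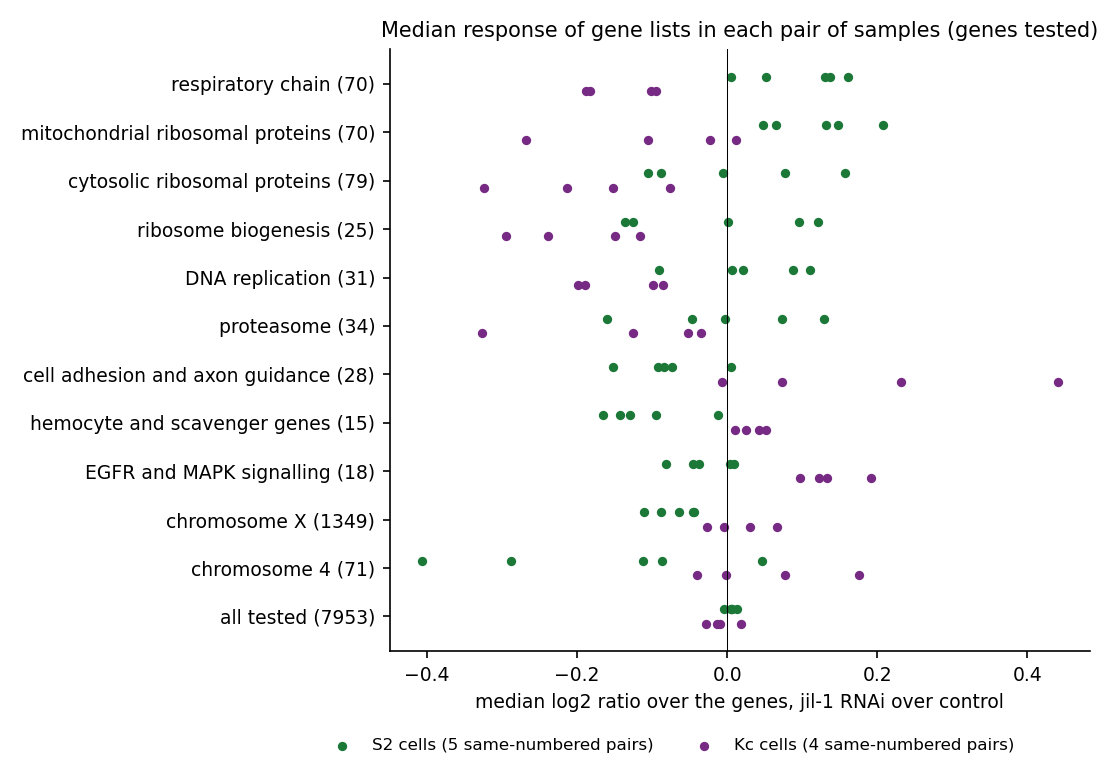
Median log2 ratio of *jil-1* RNAi over control across the tested genes of each list (number in parentheses) for 5 same-numbered pairs of S2 samples (green) and 4 of Kc samples (purple). The respiratory chain was between 0.01 and 0.16 in S2 pairs and between -0.19 and -0.10 in Kc pairs, and the hemocyte and EGFR lists and the X chromosome lay lower in every S2 pair than in every Kc pair.

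The length of the transcript moved with these results. Genes with a lower response in S2 cells had a median exon length of 3481 bases and those with a higher response 1453 bases, against 2028 bases for all tested genes. In the quintile of genes with the shortest exons (up to 1082 bases), 1.35% were called lower and 6.81% higher, and in the quintile with the longest (from 4010 bases) 8.23% were called lower and 2.06% higher. Of the 70 respiratory chain genes 44 were in the shortest quintile, as were 54 of the 70 mitochondrial and 51 of the 79 cytosolic ribosomal protein genes. The median log2 ratio of the shortest quintile minus that of the longest was 0.01, 0.08, -0.01, 0.11 and 0.15 in the 5 S2 pairs and -0.04, -0.15, -0.25 and -0.13 in the 4 Kc pairs, so the trend ran in opposite directions in most pairs of the lines. When a trend with exon length was removed from each library, a choice made after seeing the data, the higher calls fell to 10 in the respiratory chain, 2 in the mitochondrial ribosome and 0 in the cytosolic ribosome, while the medians stayed positive at 0.19, 0.13 and 0.10. With RLE scaling the calls were 21 in the respiratory chain, 12 in the mitochondrial and 8 in the cytosolic ribosome, with TMM factors from autosomal genes 17, 8 and 3, and with at least 10 reads in every sample 13, 7 and 2. The respiratory calls also fell to 2 without S2 batch 2 and to 2 without Kc batch 2, and those of both ribosomes to 0. Leaving out 1 sample gave between 11 (without S2 control replicate 8) and 25 respiratory calls, between 1 (without Kc replicate 3 after *jil-1* RNAi) and 15 for the mitochondrial ribosome, and between 1 (without S2 control replicate 9) and 19 for the cytosolic ribosome.

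**Figure D4:**
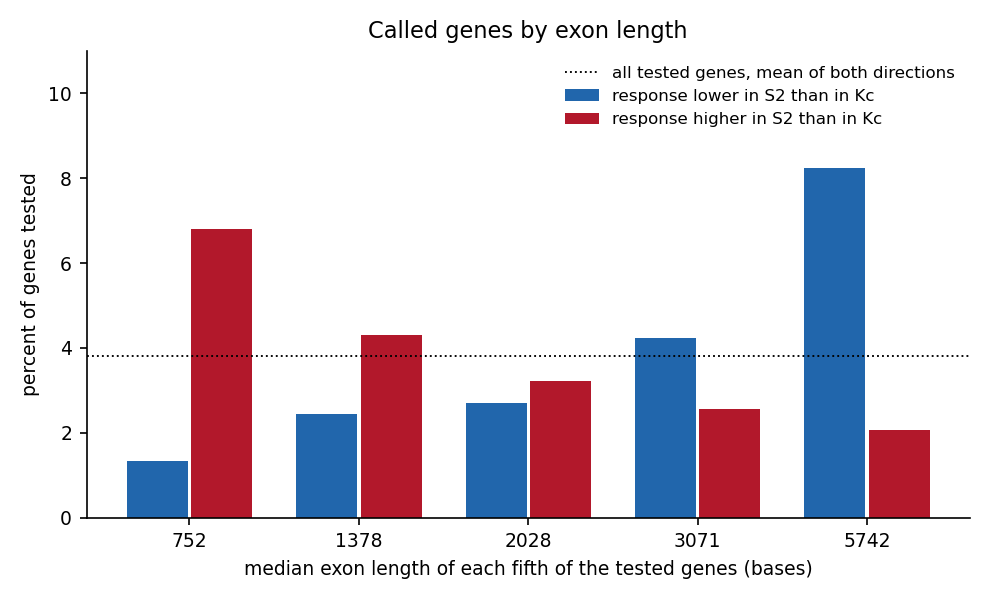
Percent of tested genes with a lower (blue) and a higher (red) response in S2 than in Kc cells in quintiles of the genes by exon length (x axis, median in bases); the dotted line is the mean of both percentages over all tested genes. The share of lower responses was 1.35% in the shortest and 8.23% in the longest quintile, and the share of higher responses 6.81% and 2.06%.

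Genes of cell adhesion and axon guidance, most of them long, went the other way. Of 28 tested genes 5 were called lower in S2 cells (17.9%) and 0 higher, against 3.82% and 3.78% of all genes. Of the 28 differences 25 were negative, and the median was -0.33. *sli* (FBgn0264089, minus strand of arm 2R, 15869495 to 15922118), the ligand of the Robo receptors, had 45.1, 45.1, 30.7, 31.8 and 68.2 CPM in S2 cells after *jil-1* RNAi and 45.0, 58.7, 35.3, 34.1 and 102 CPM in S2 controls. In Kc cells *sli* had 91.5, 65.3, 64.1 and 74.7 CPM after *jil-1* RNAi against 41.5, 47.3, 34.1 and 43.4 CPM in controls. It rose in Kc cells without overlap (difference -1.06, standard error 0.15, adjusted p = 0.000512). *Nrt*, an adhesion protein, fell in S2 cells instead, with 2.52, 2.88, 5.45, 2.20 and 3.50 CPM after *jil-1* RNAi against 6.02, 9.47, 8.42, 10.2 and 15.2 CPM in controls, and had 68.1, 37.9, 28.8 and 28.5 CPM after *jil-1* RNAi and 41.0, 40.7, 25.9 and 27.3 CPM in controls of Kc cells (difference -1.71, adjusted p = 0.00315). The semaphorins *Sema2a* (-0.75), *Sema1a* (-1.02) and *Sema1b* (-0.42), guidance cues and receptors, made up the rest. Of the 28 genes, 26 were in the quintile with the longest exons, of which 8.23% were called lower. With the length trend removed, *sli*, *Nrt* and *Sema2a* stayed called, at differences of -0.93, -1.64 and -0.69.

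Genes of hemocytes, the cells both lines resemble, had calls in both directions. Of 15 tested genes 3 were called lower and 1 higher, against 3.82% and 3.78% of all genes (median -0.33), and all 4 encode surface proteins. The 7 hemocyte markers given above, some of them in this list too, had a median of the other sign (0.37). Of these markers 5 had a positive and 2 a negative difference, with 1 called lower and 1 higher. The engulfment receptor *drpr* had 117, 120.5, 80.2, 81.2 and 160.4 CPM in S2 cells after *jil-1* RNAi against 191, 182, 205.3, 180.0 and 323 CPM in S2 controls. In Kc cells *drpr* had 90.1, 91.3, 92.0 and 88.2 CPM after *jil-1* RNAi and 87.5, 91.2, 78.6 and 92.0 CPM in controls (difference -1.02, standard error 0.13, adjusted p = 0.000166). The phagocytosis receptor *NimC1* had 33.00, 33.8, 31.2, 25.2 and 31.6 CPM in S2 cells after *jil-1* RNAi against 60.4, 54.8, 54.1, 52.2 and 58.8 CPM in S2 controls. In Kc cells *NimC1* had 16.5, 23.7, 4.70 and 8.63 CPM after *jil-1* RNAi and 15.6, 12.9, 5.44 and 6.62 CPM in controls (difference -1.19, adjusted p = 0.00148). Both were lower in every S2 sample after *jil-1* RNAi than in every S2 control. *eater*, of the same receptor family as *NimC1*, fell in Kc cells to 14.0, 15.2, 10.6 and 12.4 CPM after *jil-1* RNAi, against 27.4, 59.2, 21.6 and 24.6 CPM in controls. In S2 cells it had between 152 and 214 CPM after *jil-1* RNAi and between 193 and 236 CPM in controls (difference 0.99, adjusted p = 0.0179). Without Kc replicate 2 after *jil-1* RNAi its call was lost (adjusted p = 0.0501), and without Kc control replicate 2 its difference was 0.638 and called. *He*, the surface protein Hemese, had a difference of -0.64.

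Matrix proteins, which hemocytes secrete, had 3 genes called lower and 3 higher of 18, beside the same shares of all genes. The laminin subunit *wb* had 94.0, 90.1, 59.6, 57.6 and 106 CPM in S2 cells after *jil-1* RNAi and 107, 106, 78.8, 75.9 and 138 CPM in S2 controls. In Kc cells *wb* had 9.35, 3.87, 7.71 and 10.5 CPM after *jil-1* RNAi against 1.22, 2.33, 3.52 and 4.17 CPM in controls (difference -1.68, adjusted p = 0.000519), a gene far higher in S2 than in Kc cells like those above. The other laminin α subunit, *LanA*, had the opposite sign (0.34), as had *Tig* (0.41), a ligand of integrins. *Ppn*, the matrix protein papilin, had 61.9, 52.1, 157 and 244 CPM in Kc cells after *jil-1* RNAi against 110.0, 148, 311 and 341 CPM in Kc controls, lower within each batch. The S2 samples had between 238 and 267 CPM after *jil-1* RNAi and between 215 and 286 CPM in controls (difference 1.00, standard error 0.17, adjusted p = 0.00182). The protease *Mmp1* (-0.42) and the integrin subunit *mys* (-0.41) were called lower.

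Immune signalling had few members called. In the JAK/STAT pathway, 2 of 12 tested genes were called lower (16.7%) and 1 higher (8.33%), against 3.82% and 3.78% of all genes. Its short receptor *et*, which dampens the pathway, fell in Kc cells to 16.9, 20.3, 26.2 and 21.0 CPM after *jil-1* RNAi against 56.4, 78.4, 39.0 and 56.7 CPM in controls, and had 216, 219, 221, 229 and 168 CPM after *jil-1* RNAi and 284, 257, 249.9, 249 and 235 CPM in controls of S2 cells (difference 1.11, standard error 0.20, adjusted p = 0.00327). *Socs36E*, a target and inhibitor of the pathway, and the stress gene *TotA* were called lower (-0.56 and -1.85), *TotA* at under 2 CPM in every sample. The call of *Socs36E* was lost under 22 of 36 alternatives and that of *TotA* under 19 of 34, of which 15 and 12 left out 1 sample. Of 24 tested Imd and Toll genes 1 was called lower and 1 higher (4.17% each), near the shares of all genes. The Toll ligand *spz* was called higher, with 56.1, 60.4, 38.8 and 41.7 CPM in Kc cells after *jil-1* RNAi against 84.4, 127, 62.7 and 75.2 CPM in Kc controls. The S2 samples had between 338 and 436 CPM after *jil-1* RNAi and between 341 and 444 CPM in controls (difference 0.78, adjusted p = 0.00153). The receptor *PGRP-LC* was called lower (-1.34, adjusted p = 0.0462), at most 1.33 CPM in Kc cells, and its call was lost under 28 of 34 alternatives, among them those without any 1 sample but S2 replicate 5 after *jil-1* RNAi and S2 control replicate 4.

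Of 77 tested cytochrome P450 and conjugating enzyme genes, which detoxify, 6 were called lower and 10 higher, against 3.82% and 3.78% of all genes (median 0.08). *Ugt317A1* fell in Kc cells to 16.02, 15.9, 20.2 and 28.1 CPM after *jil-1* RNAi, within each batch below the controls with 25.5, 27.8, 45.6 and 39.6 CPM. In S2 cells it had between 165 and 193 CPM after *jil-1* RNAi and between 162 and 186 CPM in controls (difference 0.88, standard error 0.11, adjusted p = 0.000166). *GstD3*, a glutathione transferase, had 163, 177, 138 and 136 CPM in Kc cells after *jil-1* RNAi against 235, 226, 171 and 175 CPM in Kc controls and rose by 0.25 in S2 cells (difference 0.64, adjusted p = 0.000519). The juvenile hormone epoxide hydrolases *Jheh1* (0.85) and *Jheh2* (0.36) were called higher. Lower were, besides *Cyp12a5* and *Cyp28a5*, *Cyp6a14* (-1.16), *Cyp6d5* (-0.82), *GstE7* (-0.37) and *Ugt37A3* (-2.20, under 2 CPM on average in each group). In lipid metabolism 4 of 21 genes were called lower and 1 higher: besides *apolpp*, the lipophorin receptor *LpR2* (-0.98), the triglyceride lipase *bmm* (-0.36) and *SCAP* (-0.34) were lower, and *mdy*, which makes triglycerides, was higher (0.64).

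Genes of the germline, silent in most somatic cells, gave 2 of 17 tested genes called lower and 4 higher, against 3.82% and 3.78% of all genes. The lower ones were *aub* and *AGO3*, Argonaute proteins of the piRNA pathway, while the Argonaute *piwi* did not pass (difference -0.89, adjusted p = 0.0685). *aub* (FBgn0000146, minus strand of arm 2L, 10997819 to 11001476) had 10.7, 12.8, 11.01, 9.34 and 21.8 CPM in S2 cells after *jil-1* RNAi against 23.0, 22.9, 18.4, 18.03 and 49.6 CPM in S2 controls, lower within each batch. In Kc cells *aub* had 206, 193, 163 and 147 CPM after *jil-1* RNAi and 201, 236, 174 and 164 CPM in controls (difference -0.86, standard error 0.11, adjusted p = 0.000166). *AGO3* averaged 5.26 ± 1.54 and 16.1 ± 3.83 CPM after *jil-1* and control RNAi in S2 cells (SD, n = 5 each), and 175 ± 32.97 and 230.0 ± 24.2 CPM in Kc cells (SD, n = 4 each), with a difference of -1.27 (adjusted p = 0.00124). Besides *Cyt-c1L* and *bgcn*, the higher ones were *orb*, a regulator of translation in oocytes, with 12.3 ± 0.711 and 7.04 ± 0.656 CPM after *jil-1* and control RNAi in S2 cells (SD, n = 5 each) and 12.3 ± 3.26 and 13.2 ± 1.76 CPM in Kc cells (SD, n = 4 each; difference 0.94, adjusted p = 0.00346), and the spermatocyte regulator *topi* (0.54). The list had a median of 0.18.

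Among chromatin and dosage genes few responses differed, in short lists. Calls made up 12.5% of the dosage compensation and 6.25% of the heterochromatin list, against 7.61% of all tested genes. Counts this small do not set the lists apart from all tested genes. Of 8 dosage compensation genes, *roX2* alone was called, with 952, 828, 518, 709 and 879.7 CPM in S2 cells after *jil-1* RNAi and 772, 748, 754, 721 and 845 CPM in S2 controls. In Kc cells *roX2* had 4.67, 2.78, 2.51 and 1.501 CPM after *jil-1* RNAi and 1.83, 1.89, 0.680 and 0.613 CPM in controls. The difference of *lncRNA:roX2* (-1.19, adjusted p = 0.0319) rests on few reads in Kc cells, and its call was lost under 13 of 34 alternatives. Among these were the fits without Kc replicate 1 after *jil-1* RNAi (adjusted p = 0.0819), and without Kc replicate 3 after *jil-1* RNAi, Kc control replicate 3, Kc control replicate 4 or S2 control replicate 8 (0.051 to 0.131). *msl-1*, *mle* and *mof* differed by -0.01, 0.01 and -0.16 (adjusted p of 0.373 or more), and *msl-2* by -0.45 (adjusted p = 0.0693). The other X-chromosomal RNA, *lncRNA:roX1*, had the largest difference of the list, -2.76 (standard error 0.89), and did not pass either (adjusted p = 0.0667). In Kc cells *lncRNA:roX1* had 33.4, 3.02, 1.57 and 2.25 CPM after *jil-1* RNAi and 1.05, 1.499, 1.36 and 1.47 CPM in controls, with replicate 1 after *jil-1* RNAi far above the rest. In S2 cells it had between 0.843 and 17.9 CPM after *jil-1* RNAi and between 1.01 and 26.7 CPM in controls, highest in replicate 11 of both groups. *Sxl*, the switch of female development that keeps MSL2 from being made, was called lower (-0.39, standard error 0.10, adjusted p = 0.0235), with 282, 262, 275 and 226 CPM in Kc cells after *jil-1* RNAi against 236, 221, 196 and 202 CPM in Kc controls. The call of *Sxl* was lost without S2 control replicate 8, S2 replicate 9 after *jil-1* RNAi or either S2 sample numbered 11 (0.0537 to 0.0580). Of 16 heterochromatin protein genes only *HP5* was called (-0.36), a call lost in 9 of the 18 fits without 1 sample (0.0503 to 0.0772). Of 13 COMPASS and of 19 Polycomb group genes 0 were called by edgeR, DESeq2 or limma voom, with 2 in each list at an unadjusted p under 0.05.

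Smaller sets of signalling genes had few members called, beside 3.82% lower and 3.78% higher of all tested genes. Called lower were 16.7% of the ecdysone, 14.3% of the Hippo and 13.3% each of the amino acid stress and JNK lists. The share was 7.69% for apoptosis, 5.56% for EGFR and MAPK and 2.17% for lysosome and autophagy genes. Called higher were 10% of the Notch, 8.33% of the ecdysone and 4.35% of the lysosome list. Under the ecdysone hormone, *Eip93F* (difference -1.37) had 23.4, 25.6, 31.5 and 39.8 CPM in Kc cells after *jil-1* RNAi against 9.16, 10.9, 20.4 and 27.4 CPM in Kc controls, higher within each batch. Of the 12 tested genes of this response, *ftz-f1* was also called lower (-0.38) and *Eip78C* higher (0.71). Of 15 genes of amino acid stress, *chrb*, an inhibitor of TOR, was called lower (-0.59, adjusted p = 0.00315), with 115.3, 101, 98.8 and 93.8 CPM in Kc cells after *jil-1* RNAi against 74.5, 72.9, 61.9 and 77.3 CPM in Kc controls, as was *PPP1R15* (-0.30). Lower too were *rpr* (-0.99) of 13 apoptosis genes, *kay* (-0.48) and *Mmp1* of 15 JNK genes, *drk* (-0.31) of 18 EGFR and MAPK genes, and *sd* (-0.32) and *CycE* (-0.41) of 14 Hippo genes, while *Ser* was the call of 10 Notch genes. Of 46 lysosome and autophagy genes *Atg8a* was called lower (-0.47) and *CtsL1* and *Vha100-2* higher (0.45 and 0.29). Several of these calls were weak: leaving out 1 of the 18 samples ended those of *drk* in 15 cases, *kay* in 13, *ftz-f1* and *Vha100-2* in 9, *rpr* in 8, *PPP1R15* in 6 and *CycE* in 4. That of *Eip78C* was lost without either S2 sample numbered 11 (adjusted p = 0.0521 and 0.0524). No gene was called by edgeR of 15 heat shock proteins (2 at an unadjusted p under 0.05, 1 called by DESeq2), 12 glycolytic enzymes (2, with 1 called by DESeq2 and 1 by limma voom), 34 mitosis genes (4, and 0 by the other tools) and 32 tRNA synthetases (3, and 0 by the other tools).

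The chromosomes took unequal shares. Of 1349 tested X-linked genes 90 (6.67%) were called lower in S2 cells and 17 (1.26%) higher, whereas of 6344 on the large autosomal arms 194 (3.06%) were lower and 277 (4.37%) higher. The median difference was -0.09 on the X, made of -0.08 in S2 and 0.03 in Kc cells, and 0.04 on the autosomal arms. In every same-numbered S2 pair the median ratio of X-linked genes (-0.11 to -0.04) was below that in every Kc pair (-0.03 to 0.07). With the scaling factors taken from autosomal genes, 108 X-linked genes were lower and 11 higher, and with the length trend removed 74 and 14. Leaving out 1 sample gave between 48 (without S2 control replicate 8) and 110 lower calls on the X. Without S2 batch 2 there were 19 lower and 1 higher calls on the X, and without Kc batch 2 37 and 8. A fit without batches gave 8 and 2. Of the X-linked genes named above, those called lower included *Ten-a*, *CG1494*, *sdt*, *sd*, *mys*, *Atg8a* and *HP5*. *Ggt-1* (1.87) and *et* (1.11), also X-linked, were called higher. Among the large arms, 3R had the fewest lower and the most higher calls, with 40 (2.11%) and 96 (5.07%) of 1893.

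The small chromosome 4, largely heterochromatic though transcribed, had the highest share of lower responses. Of its 71 tested genes 11 (15.5%) were called lower and 1 higher, 93% of the differences were negative, and the median was -0.23. In single S2 pairs the median ratio was 0.05, -0.11, -0.41, -0.29 and -0.09, and in Kc pairs 0.08, -0.04, 0.18 and -0.001, so that the lowest values were those of the second S2 batch and the lines overlapped through S2 replicate 4. Leaving out this batch brought the lower calls to 3 and the median to -0.13, against 12 calls and -0.38 without the first S2 batch. Leaving out 1 sample gave between 5 (without S2 control replicate 8 or Kc replicate 3 after *jil-1* RNAi) and 14 lower calls, and removing the length trend gave 8 and a median of -0.17. Besides *onecut*, *CG33521* and *apolpp*, the lower genes were *Cadps* (-1.53), which primes secretory vesicles, *Ekar* (-1.05), a glutamate receptor, *bt* (-1.45), the muscle protein projectin, *mav* (-1.495), a ligand of the TGF-β family, *fuss* (-1.72), *CG32017* (-1.17), *Cals* (-0.36) and *Tdg* (-0.30), a DNA glycosylase. *Cadps* averaged 6.76 ± 2.44 and 14.9 ± 4.87 CPM after *jil-1* and control RNAi in S2 cells (SD, n = 5 each), and 9.76 ± 2.49 and 7.62 ± 1.73 CPM in Kc cells (SD, n = 4 each). *Tdg* averaged 81.6 ± 3.21 and 97.9 ± 5.87 CPM after *jil-1* and control RNAi in S2 cells, and 195 ± 17.8 and 191 ± 15.4 CPM in Kc cells (SD, n as above). The zinc finger gene *dati* was the higher one (1.17).

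**Figure D5:**
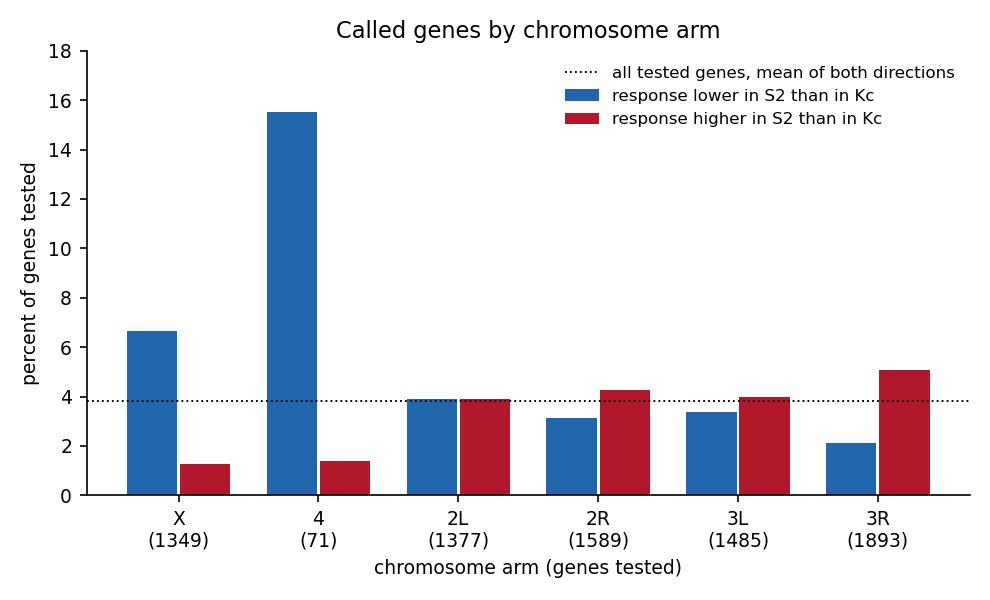
Percent of tested genes with a lower (blue) and a higher (red) response in S2 than in Kc cells on each chromosome arm (number tested in parentheses); the dotted line is the mean of both percentages over all tested genes. Lower responses made up 6.67% of the X and 15.5% of chromosome 4, and higher responses 1.26% and 1.41%.

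The called genes also shared other features. A control level at least 4-fold higher in S2 than in Kc cells was found for 62 of the 304 genes with a lower response (20.4%) and 16 of the 301 with a higher one (5.32%), against 4.09% of all tested genes. The opposite, a level at least 4-fold higher in Kc cells, held for 20 (6.58%) and 27 (8.97%), against 4.77%. The control levels enter the responses themselves, so these shares are no independent measure. Of 286 tested noncoding RNA genes 14 had a lower and 1 a higher response, beside 3.82% and 3.78% of all tested genes. In 93 of the 605 genes a sample had fewer than 10 reads, and requiring 10 reads in every sample gave 303 lower and 171 higher responses of 6624 tested, with 406 of these calls among the 605.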

How the data were processed

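RNA of *jil-1* and control RNAi samples of both lines was sequenced after ribosomal RNA depletion with a strand-specific kit. The authors aligned read pairs with STAR 2.6.0 to release 6 of the fly genome, kept unique alignments, and deposited STAR's counts per gene, 1 file per sample, as raw counts. The annotation version used for counting is not given in the sources used here. Counts on the gene's own strand were used, which held 94.1% to 96.7% of stranded reads. The summary entries that name no gene were left out. Unique alignments on no gene or on several genes made up 8.94% to 15.6% of unique alignments. Unmapped reads were 45.3% to 67.8% of all reads. In S2 batch 2 (replicates 8 and 9) they were 64.7% and 62.5% after *jil-1* RNAi, against 52.5% and 55.2% in controls. The *jasper* RNAi samples entered 1 alternative only.

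Genes with more than 0 reads in all 18 samples were fitted in R 4.3.3 with edgeR 4.0.16 (TMM factors, glmQLFit, batch nested in line, 11 residual degrees of freedom), and the interaction contrast was tested with the quasi-likelihood F-test and Benjamini-Hochberg adjustment over all 7953 genes. Every adjusted p comes from this test or from the same test under an alternative. A standard error is the difference divided by the root of F. Ratios of same-numbered samples used CPM with 0.5 added. No samples of a group were duplicates (chi-square per degree of freedom 3.68 to 68.4 over 32 pairs). Same-numbered samples did not deviate together within batches (correlations from -0.12 to 0.11), so numbers were not taken as pairs. Coordinates, symbols and lengths are from Ensembl release 115 of genome release 6, which holds 17215 of the 17489 gene IDs. Of 80 named genes with coordinates, 11 overlap a gene on the same strand, and reads of such genes may be shared (*bgcn*, *Ten-a*, *CG40006*, *Sxl*, *drpr*, *sd*, *Eip78C*, *ftz-f1*, *wb*, *sli* and *CtsL1*).

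The genes and lists were chosen with earlier results of these data known. Named genes were, among called genes whose log2 CPM averaged 1 or more and whose ratios did not overlap, the 10 largest differences in each direction and up to 6 with called opposite responses, and up to 3 called genes per list by p. Other names were chosen after their values were seen. Alternatives were DESeq2 1.42.0, limma 3.58.1 (voom), other scaling, filters, strand use, batch terms, and leaving out samples or batches. The test was checked on simulated data, where it found 87% of differences of 1 and 47.4% of differences of 0.5. Of its calls there, 4.35% were genes without a simulated difference. The simulation used 1 spread per gene for both lines, independent samples, and no response to the RNAi in the other genes. In the data the spread was 7.45% in S2 and 10.9% in Kc samples. The simulated shares therefore do not measure how reliable the calls reported here are. Tables and plots were made with Python 3.11.15, pandas 2.3.3 and matplotlib 3.10.9.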

Additional observations from a re-analysis of the deposited data

Results flagged for a closer look

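The 304 lower and 301 higher responses stand here because the responses of the lines differed by the interaction test. So do the genes with called responses of opposite direction: *Cyp28a5* (difference -1.40), *CG6357* (-2.05), *CG13917* (-1.03), *CG1494* (-1.16), *sdt* (-1.28) and *CG18528* (0.89).

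For the named genes, the highest or lowest sample of a group was set against the others by Dixon's criterion, which chance meets in about 1 of 20 groups. It was met in 34 of 324 groups (10.5%). In S2 replicate 11, the only batch with 1 sample per group, the values after *jil-1* RNAi that stood apart were 7.67 CPM for *CG8301*, 21.8 CPM for *aub*, 168 CPM for *et*, 274 CPM for *Mmp1*, 12 CPM for *Eip78C*, 10.2 CPM for *rpr*, 516 CPM for *Idgf1*, 21.8 CPM for *CG6357* and 25.9 CPM for *sdt*. In the control of the same number they were 2.28 CPM for *CG8301*, 3.19 CPM for *CG17029*, 30.6 CPM for *Cyp12a5*, 20.4 CPM for *Erasp*, 49.6 CPM for *aub*, 323 CPM for *drpr*, 408 CPM for *Mmp1*, 268 CPM for *sd*, 12.4 CPM for *rpr*, 21.5 CPM for *Sema2a* and 42.1 CPM for *CG6357*.

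Of the other S2 samples after *jil-1* RNAi, replicate 8 stood apart with 103 CPM for *HP5* and 214 CPM for *eater*, and replicate 4 with 0.679 CPM for *TotA*. S2 control replicate 4 stood apart with 68.0 CPM for *ND-B14.7*. Among Kc samples after *jil-1* RNAi, replicate 1 stood apart with 36.9 CPM for *apolpp* and 43.8 CPM for *CG13917*, and replicate 3 with 13.5 CPM for *CG33521*. Among Kc controls, replicate 1 stood apart with 37.9 CPM for *CG10738*, 0.698 CPM for *TotA*, 330 CPM for *Socs36E* and 2030 CPM for *RpS3*, replicate 2 with 59.2 CPM for *eater*, and replicate 4 with 6.49 CPM for *CG42402* and 0.98 CPM for *CG31601*.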

How the results depend on the processing

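All 605 differences kept their sign under every alternative in which the gene was tested. The counts of lower and higher responses were 364 and 285 with DESeq2, 271 and 290 with limma voom, 312 and 232 with RLE scaling (42.6% of calls higher, against 49.8%), 350 and 197 with TMM from autosomal genes (36%), and 303 and 171 with at least 10 reads in every sample (36.1%). They were 293 and 296 with filterByExpr, 287 and 332 without regard to strand, and 297 and 302 with *jasper* RNAi samples in the fit. Without a batch term they were 41 and 18, without S2 batch 1 246 and 195, without S2 batch 2 88 and 30, without S2 batch 3 194 and 161, without Kc batch 1 211 and 200, and without Kc batch 2 140 and 91. The cause of these lower counts was not tested. Leaving out 1 sample gave 173 to 344 lower and 133 to 376 higher responses. Under the alternatives chosen after seeing the data, they were 288 and 293 without both Kc samples numbered 1, 261 and 266 with controls within 10-fold, and 261 and 210 with the length trend removed.

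With a replicate block in place of batch, 248 lower and 202 higher responses were called, 402 of them among the 605, with 18 higher calls in the respiratory chain, 7 in the mitochondrial and 3 in the cytosolic ribosome. Without a batch term these were 1, 0 and 0. Since the numbers did not pair the samples (within batches, correlations of 0.112 and -0.0983 in S2 and of -0.0729 and -0.119 in Kc cells), this fit stays an alternative. Of 9 same-numbered pairs, only S2 4, S2 11, Kc 1 and Kc 4 correlated best with their own number.

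Of 2882 values of named genes under alternatives, 2389 stayed on the same side of the threshold, 478 lost the call and 15 changed sign, all 15 for *JIL-1*, a gene that was not called and whose own-strand reads were raised in some *jil-1* RNAi samples. Its difference, -0.02 with all samples, was 0.197 with limma voom, 0.291 without regard to strand, 0.109 without a batch term, 0.12 with the replicate block, 0.407 without S2 batch 3, 0.0163 without Kc batch 1, 0.731 without both Kc samples numbered 1, 0.0773 with the length trend removed, and between -0.65 and 0.819 without 1 sample. Depth limits the 93 called genes with fewer than 10 reads in a sample.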

Other observations

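Calls were also found in a list not described above. Of 11 tested genes of chitin metabolism, 2 were called lower (18.2%) and 1 higher (9.09%). The shares of all tested genes were 3.82% and 3.78%. Besides *Cht10*, *Idgf1*, a chitinase-like growth factor, had a lower response in S2 cells (-0.36, adjusted p = 0.0162), while its relative *Idgf6* had a higher one (0.93). *Idgf1* averaged 472 ± 25.5 and 480.2 ± 37.8 CPM after *jil-1* and control RNAi in S2 cells (SD, n = 5 each), and 113 ± 41.6 and 88.2 ± 28.6 CPM in Kc cells (SD, n = 4 each). Heat shock proteins had the highest median difference of the lists with more than 10 tested genes (0.37, 12 of 15 positive) without a gene called. In same-numbered pairs their median ratio was between -0.14 and 0.45 in S2 cells and was -1.17 in Kc pair 1, against -0.16 to 0.15 in the other Kc pairs.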
